A study of Sus scrofa with 12 samples.

Results

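A set of 10 genes that act as brakes on mitogen-activated protein (MAP) kinase signalling, DUSP1, DUSP4, DUSP5, DUSP6, DUSP10, SPRY1, SPRY2, SPRY4, SPRED1 and SPRED2, were followed in the striatum of newborn piglets. They were taken by gene name from the authors' deposited comparison table, where 10 of 10 names were found, out of 21223 genes in that table and 25880 in the count table. RNA sequencing libraries came from 6 piglets of the deep hypothermic circulatory arrest group (DHCA) and 6 sham piglets. Under 4% isoflurane, the chest of each DHCA piglet was opened along the sternum for cardiopulmonary bypass, the body was cooled to 18 °C and the circulation was stopped for 30 min. Bypass then brought the temperature back to 37 °C, and tissue was taken after 6 h of recovery. Sham piglets had the 4% isoflurane alone. The groups thus shared neonatal stage and the kind of anaesthetic, and differed by surgery, bypass, cooling, arrest and recovery together. No recovery time is given for sham piglets, and the length of anaesthesia may also differ between the groups. The comparison asks how levels in DHCA striatum stood 6 h after arrest relative to sham striatum. In such bulk tissue, fewer cells of a type and less RNA per cell cannot be told apart.

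MAP kinases are switched on by phosphorylation of a threonine and a tyrosine, and the dual-specificity phosphatases (DUSPs) of this family switch them off by removing both phosphates. DUSP1, DUSP4 and DUSP5 are nuclear enzymes and DUSP6 is a cytosolic one. DUSP5 and DUSP6 act mainly on the kinase ERK, and DUSP10 mainly on the stress kinases JNK and p38. The Sprouty (SPRY) and Sprouty-related (SPRED) proteins act further upstream, between growth factor receptors, RAS and RAF. Many of these genes are themselves induced by ERK signalling, so that they form a negative feedback loop, and in brain several respond to neuronal activity.

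Library totals lay between 5434652 and 9997400 counts in DHCA and between 1377809 (Sham 5) and 12933536 in sham, with Sham 1 the second shallowest at 2515816. Sham 1 also differed from the other 11 libraries in other ways. Its median correlation of log2 counts with them was 0.859, against 0.903 to 0.961 for the others. Its mitochondrial share of counts was 4.01%, against 7.30% to 26.3%. What lies behind this was not tested. One sham library did not carry the profile of striatum. In Sham 4 the 10 marker genes of spiny projection neurons, the main striatal cell type, summed to 170 CPM (counts-per-million units, here of the library total), against 2045 to 4644 in DHCA and 2632 to 6089 in the other 5 sham libraries. The dopamine receptor gene DRD1 was at 1.14 CPM (for single genes of the TMM-scaled library size) in Sham 4, against 204 to 353 CPM in the other sham libraries. Markers of excitatory neurons of other brain regions summed to 1026 CPM in Sham 4 and to 20.5 to 79.1 CPM in the other 11 libraries, and their leading gene SLC17A7 was at 838 CPM in Sham 4. No gene of the 11 marker lists passed the test between the groups. The plot of fold changes gives each of the 10 genes with and without Sham 4.

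**Figure D1:**
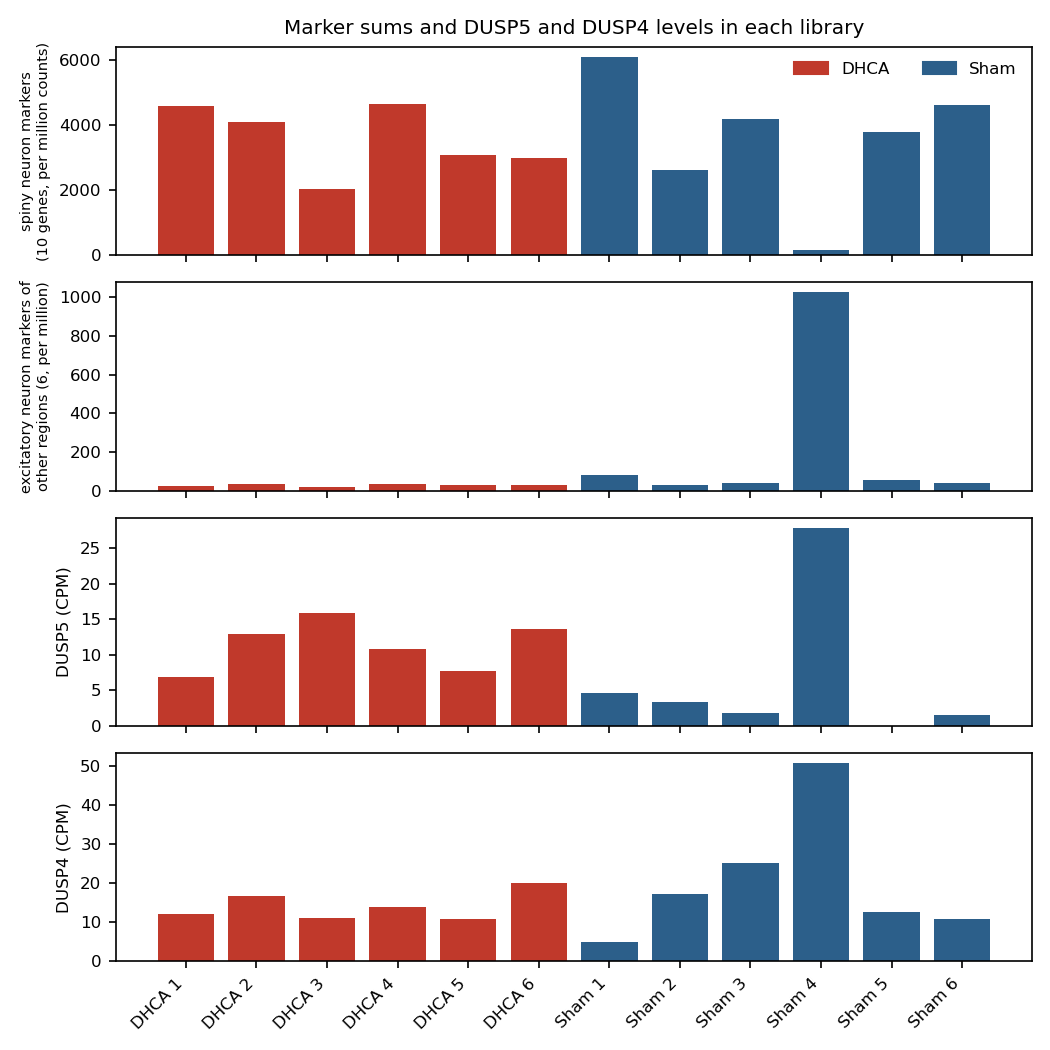
Summed level of spiny projection neuron markers and of excitatory neuron markers of other regions (CPM of the library total), and DUSP5 and DUSP4 (CPM), in each of the 6 DHCA (red) and 6 sham (blue) libraries. Sham 4 has 170 CPM of spiny neuron markers and 1026 of the other set, and also the highest DUSP5 (27.9 CPM) and DUSP4 (50.9 CPM).

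None of the 10 genes passed the test between DHCA and sham striatum. All 10 were tested, with 0 higher and 0 lower at an adjusted p under 0.05 (edgeR quasi-likelihood F test, Benjamini-Hochberg over 14004 genes; smallest adjusted p = 0.479), where 0.186% of all genes tested were called. At an unadjusted p under 0.05 there were 2 members, DUSP6 higher and SPRY1 lower in DHCA, beside 7.9% of all genes tested (3.43% higher and 4.47% lower). The DESeq2 Wald test (1.26% of all genes called) and limma-voom (0.193%) called 0 members, and limma-voom with sample quality weights (1.48%) called 1, DUSP5. Of the 10 log2 fold changes (DHCA minus sham throughout) 5 were positive and 5 negative. Their median was -0.022, beside -0.003 over all genes tested. Only SPRY1 had groups that did not overlap, which was found in 0.993% of all genes tested. Without Sham 4 the groups of both SPRY1 and DUSP5 were separate, as were those of 1.25% of all genes tested.

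**Figure D2:**
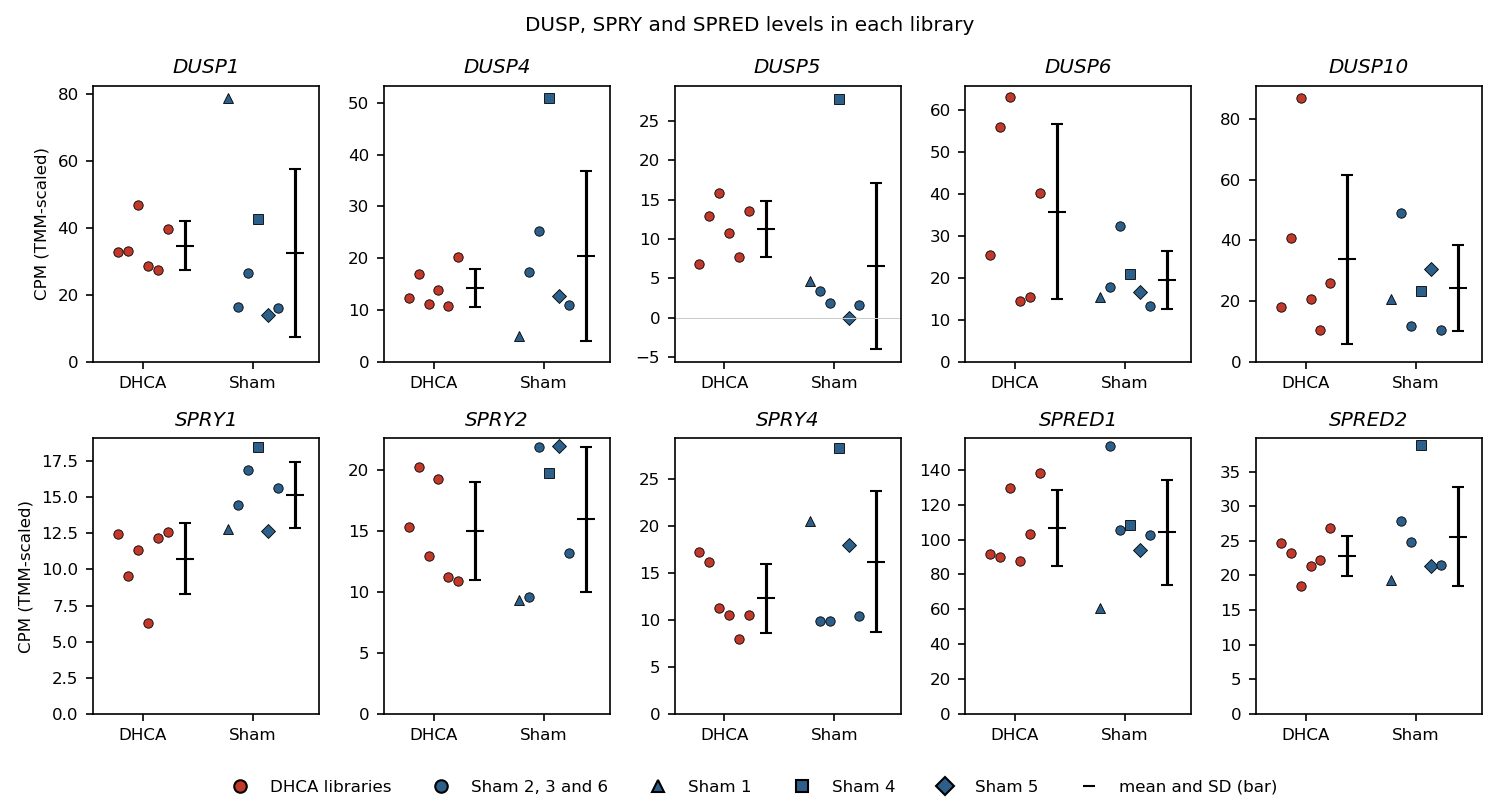
Level of each gene (CPM, scaled by TMM) in each library, DHCA in red on the left and sham in blue on the right of each panel, with the group mean and SD beside the points (n = 6 per group). Sham 1 (triangle), Sham 4 (square) and Sham 5 (diamond) are marked because of depth or markers. The 6 DHCA libraries of SPRY1 lie below all sham libraries, and those of DUSP5 lie above all sham libraries except Sham 4.

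Per exon length, SPRED1 had the highest mean and DUSP5 the lowest, though neighbouring genes overlapped. In RPKM (CPM divided by exon length in kilobases), SPRED1 averaged 20.3 ± 4.15 in DHCA and 19.8 ± 5.70 in sham (SD, n = 6 each). SPRY2 followed with 15.8 ± 4.24 RPKM in DHCA and 16.8 ± 6.29 RPKM in sham, over a gene model of only 948 bases. DUSP5 averaged 2.12 ± 0.656 RPKM in DHCA and 1.23 ± 1.98 RPKM in sham. In DHCA this was close to SPRY1 (2.21 ± 0.503 RPKM) and SPRY4 (2.27 ± 0.673 RPKM). Ordered by the mean over the 12 libraries, the genes ran SPRED1, SPRY2, DUSP10, DUSP1, DUSP6, SPRED2, DUSP4, SPRY1, SPRY4 and DUSP5. Neighbours in this order overlapped within 1 SD in all 9 steps. SPRED2 lay above DUSP4 in 11 of 12 libraries and SPRY2 above DUSP10 in 10 of 12, while SPRY1 exceeded SPRY4 in 6 of 12. SPRED1 lay above SPRY2 in 7 of 12 libraries, DUSP1 above DUSP6 in 7, DUSP4 above SPRY1 in 6 and SPRY4 above DUSP5 in 9. DUSP10 exceeded DUSP1 in only 5 of 12 libraries, as DUSP6 did SPRED2.

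**Figure D3:**
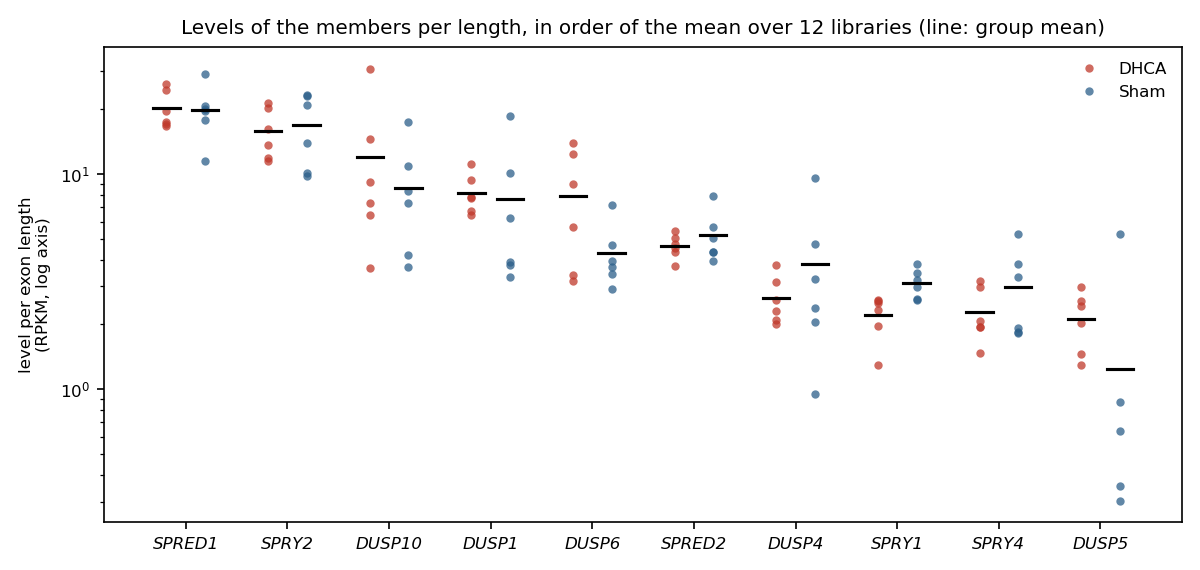
Level per exon length (RPKM, log axis) of the 10 genes in order of their mean over 12 libraries, with DHCA libraries in red left of sham libraries in blue and black lines at group means. SPRED1 averages 20.3 RPKM in DHCA and 19.8 RPKM in sham, and DUSP5 2.12 RPKM in DHCA and 1.23 RPKM in sham. The Sham 5 value of DUSP5 is 0 and is not drawn on the log axis.

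Among the nuclear phosphatases, DUSP5 differed most between DHCA and the sham libraries other than Sham 4. DUSP5 (ENSSSCG00000040815, Sscrofa11.1 chromosome 14, 120906039 to 120921985, plus strand) was at 6.86, 12.9, 15.8, 10.8, 7.72 and 13.6 CPM in DHCA 1 to 6. In the sham group it was at 4.65, 3.41, 1.89, 27.9, 0 and 1.61 CPM in Sham 1 to 6. Every DHCA library thus lay above 5 of the 6 sham libraries and below Sham 4, the library that lacked spiny neuron markers. The 0 in Sham 5 stands for 0 counts, which at that depth allows up to 2.00 CPM (3 counts, counting error only).

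With all 12 libraries, DUSP5 had a log2 fold change of 0.69 (SE 0.68, 95% interval -0.75 to 2.14, edgeR adjusted p = 0.823). Without Sham 4, DUSP5 averaged 11.3 ± 3.50 CPM in DHCA (n = 6) and 2.31 ± 1.78 CPM in sham (n = 5). The log2 fold change was then 2.20 (SE 0.42, interval 1.29 to 3.11, edgeR adjusted p = 0.0903), the 23rd smallest p of 14134 genes, in a fit that called 0.0708% of them. Without Sham 1, Sham 4 and Sham 5 it was 2.26 (SE 0.37, edgeR adjusted p = 0.0991). With all 12 libraries, unweighted limma-voom gave 1.73 (SE 0.60, adjusted p = 0.470) and edgeR with the replicate block 1.72 (SE 0.67, adjusted p = 0.771). With limma-voom and sample quality weights it was 2.20 (SE 0.44) and was called (adjusted p = 0.0216), where that fit called 1.48% of all genes. Without Sham 1 and Sham 5, where Sham 4 was kept, it was 0.41 (SE 0.70, edgeR adjusted p = 0.968).

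DUSP1 (ENSSSCG00000016991, chromosome 16, 51458262 to 51463541, plus strand), an immediate early gene that also responds to glucocorticoids, ranged in DHCA from 27.3 to 46.9 CPM with a median of 32.8 CPM. In sham it ranged from 13.98 to 78.7 CPM with a median of 21.4 CPM. Each of the 6 DHCA libraries lay above the sham median, and 4 sham libraries lay below all of DHCA, but Sham 1 (78.7 CPM) lay above all of DHCA and Sham 4 (42.5 CPM) within its range. The means were 34.6 ± 7.38 CPM in DHCA and 32.3 ± 25.1 CPM in sham (SD, n = 6 each), and the log2 fold change was 0.11 (SE 0.38, interval -0.70 to 0.92, edgeR adjusted p = 0.951). Without Sham 1 it was 0.57, and without Sham 1, Sham 4 and Sham 5 it was 0.83 (SE 0.23), neither called. The log2 fold change of DUSP1 was -0.007 without DHCA 3, -0.03 without Sham 2 or Sham 5 and -0.04 without Sham 6.

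DUSP4 (ENSSSCG00000015850, chromosome 15, 55490468 to 55508455, plus strand), a nuclear phosphatase of ERK, JNK and p38, ranged in DHCA from 10.7 to 20.2 CPM with a median of 13.0 CPM. In sham it ranged from 5.04 CPM (Sham 1) to 50.9 CPM (Sham 4) with a median of 15.0 CPM. The DHCA range lay inside the sham range. Its log2 fold change was -0.55 (SE 0.41, interval -1.44 to 0.33, edgeR adjusted p = 0.797), and without Sham 4 it was -0.05 (SE 0.32).

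DUSP6, the cytosolic ERK phosphatase, lay above every sham library in 3 of the 6 DHCA libraries. DUSP6 (ENSSSCG00000037910, chromosome 5, 93303519 to 93309678, plus strand) was at 25.6, 56.0, 63.3, 14.4, 15.3 and 40.4 CPM in DHCA 1 to 6. The sham libraries ranged from 13.2 to 32.5 CPM with a median of 17.2 CPM. Those above every sham library were DHCA 2, DHCA 3 and DHCA 6, while DHCA 4 and DHCA 5 lay below the sham median. The means were 35.8 ± 20.8 CPM in DHCA and 19.4 ± 6.89 CPM in sham (SD, n = 6 each), a log2 fold change of 0.87 (SE 0.37, interval 0.07 to 1.67, unadjusted p = 0.0351, edgeR adjusted p = 0.579). It kept its sign without any 1 of the libraries (0.62 to 1.09), and without Sham 1, Sham 4 and Sham 5 it was 0.77 (edgeR unadjusted p = 0.157). The interval included 0 when DHCA 2, DHCA 3, DHCA 6, Sham 1, Sham 2, Sham 5 or Sham 6 was left out, with an edgeR unadjusted p of up to 0.108 (without DHCA 3). With all 12 libraries, limma-voom gave DUSP6 a log2 fold change of 0.68 (unadjusted p = 0.101) and 0.47 with sample quality weights (unadjusted p = 0.212). A gene of unknown name on the other strand overlaps DUSP6 and had 23 to 191 counts per library, and reads of the overlap cannot be told apart in counts made without strand.

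DUSP10 (ENSSSCG00000010831, chromosome 10, 10866448 to 10921056, minus strand), the phosphatase of JNK and p38, had the widest relative spread within the DHCA group. It ranged in DHCA from 10.3 CPM (DHCA 5) to 86.8 CPM (DHCA 3) with a median of 23.2 CPM, and in sham from 10.4 CPM (Sham 6) to 48.9 CPM (Sham 2) with a median of 21.9 CPM. The sham range lay inside the DHCA range. Its log2 fold change was 0.48 (SE 0.49, interval -0.58 to 1.54, edgeR adjusted p = 0.828), and it turned to -0.09 (SE 0.43) without DHCA 3. The summed level of 5 oligodendrocyte markers was also highest in DHCA 3 (58350 CPM) and lowest in DHCA 5 (4541 CPM) of the DHCA libraries, and highest in Sham 2 (31134 CPM) and lowest in Sham 6 (9840 CPM) of the sham libraries. That list spanned 4541 to 58350 CPM in DHCA and 9840 to 31134 CPM in sham, 0 of its 5 genes passed the test, and its part in the DUSP10 values was not tested.

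SPRY1 was lower in every DHCA library than in any sham library, by a small margin. SPRY1 (ENSSSCG00000009083, chromosome 8, 100854658 to 100861157, minus strand), a Sprouty inhibitor of receptor signalling to ERK, was at 12.5, 9.51, 11.4, 6.32, 12.2 and 12.6 CPM in DHCA 1 to 6. In Sham 1 to 6 it was at 12.8, 14.5, 16.9, 18.5, 12.6 and 15.7 CPM. The highest DHCA value, 12.57 CPM in DHCA 6 (61 counts), and the lowest sham value, 12.65 CPM in Sham 5 (19 counts), lay close together. In Sham 1, the other shallow library, the value rests on 33 counts. The means were 10.7 ± 2.44 CPM in DHCA and 15.2 ± 2.30 CPM in sham (SD, n = 6 each). The log2 fold change was -0.51 (SE 0.19, interval -0.92 to -0.10, unadjusted p = 0.0184, edgeR adjusted p = 0.479), and it stayed between -0.56 and -0.40 when each library was left out in turn, with no call. Without Sham 4 it was -0.45 (SE 0.20, edgeR adjusted p = 0.676). The summed level of the 7 endothelial markers in the table was 255 to 345 CPM in DHCA and 224 to 483 CPM in sham. Of these 7, 0 passed the test, with unadjusted p under 0.05 in 1 higher and 4 lower genes (3.43% and 4.47% of all genes tested). Their part in the SPRY1 values was not tested.

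SPRY2 and SPRY4 did not separate the groups. SPRY2 (ENSSSCG00000009482, chromosome 11, 52154493 to 52155440, minus strand) ranged in DHCA from 10.9 to 20.2 CPM with a median of 14.1 CPM, and in sham from 9.31 to 21.97 CPM with a median of 16.5 CPM, so the DHCA range lay inside that of sham. Its log2 fold change of -0.08 had an interval of -0.64 to 0.49 (edgeR adjusted p = 0.951), and it was 0.05 without Sham 3 and 0.02 without Sham 5. SPRY4 (ENSSSCG00000036322, chromosome 2, 143877340 to 143891285, minus strand) ranged in DHCA from 7.95 to 17.3 CPM with a median of 10.9 CPM. In sham it ranged from 9.84 to 28.3 CPM with a median of 14.2 CPM, with Sham 4 the highest and Sham 1 (20.5 CPM) next. The log2 fold change of SPRY4 was -0.37 (SE 0.30, interval -1.02 to 0.27, edgeR adjusted p = 0.811). It was -0.12 without Sham 4 and turned to 0.28 (SE 0.24) without Sham 1, Sham 4 and Sham 5.

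The SPRED genes, whose proteins bring the RAS inhibitor neurofibromin to the membrane, had the smallest fold changes beside SPRY2 and DUSP1. SPRED1 (ENSSSCG00000039393, chromosome 1, 132904275 to 133016243, minus strand) ranged in DHCA from 87.9 to 138 CPM with a median of 97.4 CPM, and in sham from 60.5 CPM (Sham 1) to 154 CPM (Sham 2) with a median of 104 CPM. With 9777 counts over the 12 libraries it had the most counts of the 10 genes. Its log2 fold change of 0.03 had an interval of -0.41 to 0.48 (edgeR adjusted p = 0.980), and it was -0.05 without DHCA 3, -0.06 without DHCA 6 and -0.09 without Sham 1. SPRED2 (ENSSSCG00000008357, chromosome 3, 76523589 to 76649647, plus strand) ranged in DHCA from 18.4 to 26.8 CPM with a median of 22.8 CPM, and in sham from 19.4 to 38.8 CPM with a median of 23.1 CPM, the highest again in Sham 4. Its log2 fold change was -0.18 (SE 0.18, interval -0.57 to 0.22, edgeR adjusted p = 0.828), and without Sham 4 it was -0.03.

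**Figure D4:**
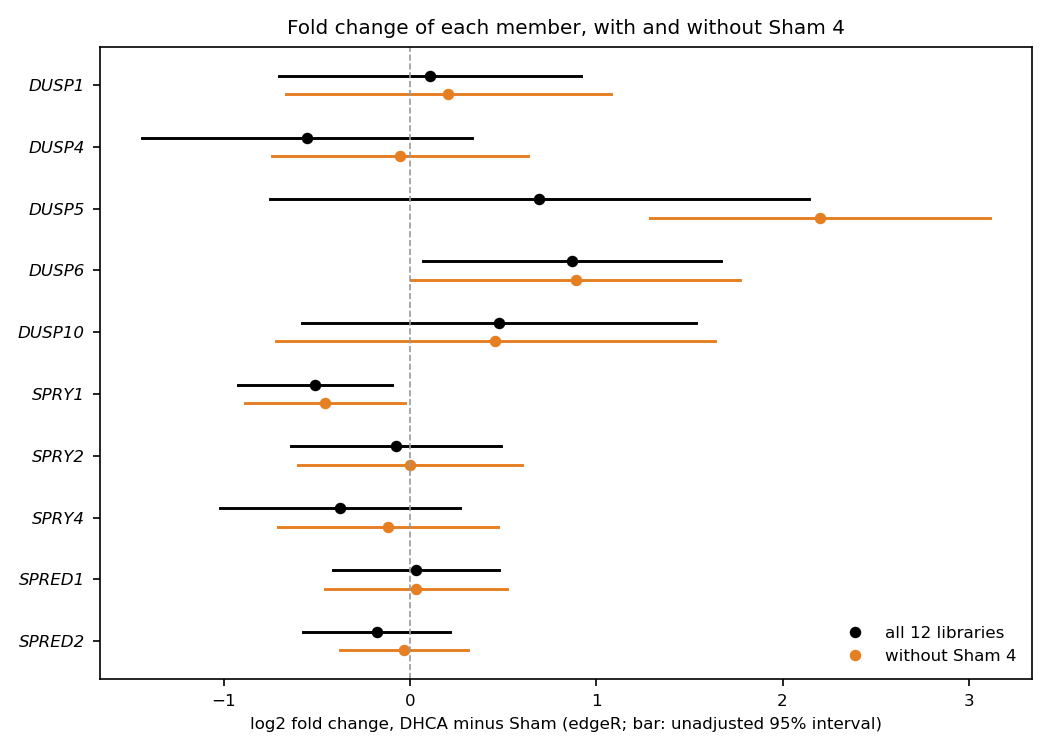
Log2 fold change (DHCA minus sham, edgeR) of each gene with its unadjusted 95% interval, from all 12 libraries (black) and without Sham 4 (orange). DUSP5 is at 0.69 with all libraries and 2.20 without Sham 4, DUSP4 is at -0.55 and -0.05, and the intervals of DUSP6 and SPRY1 lie on one side of 0 in both fits.

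The libraries differed in how the 10 genes sat relative to their group. Sham 4 lay above the mean of the sham group (log2 CPM) in 10 of 10 genes and was the highest sham library in 5 of them. DHCA 5 lay below the DHCA mean in all but 1 gene and was the lowest DHCA library in 4. DHCA 3 and DHCA 6 were each the highest DHCA library in 4 genes. In 7 of the 10 genes the coefficient of variation was larger in sham than in DHCA. The same count was not made over all genes, and the sham group holds the shallow Sham 1 and Sham 5 as well as Sham 4. For DUSP5 the coefficient of variation was 31.0% in DHCA and 161% in sham, or 77.1% in sham without Sham 4 (added after seeing the data). For DUSP6 it was 58.1% in DHCA and 35.4% in sham.

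**Figure D5:**
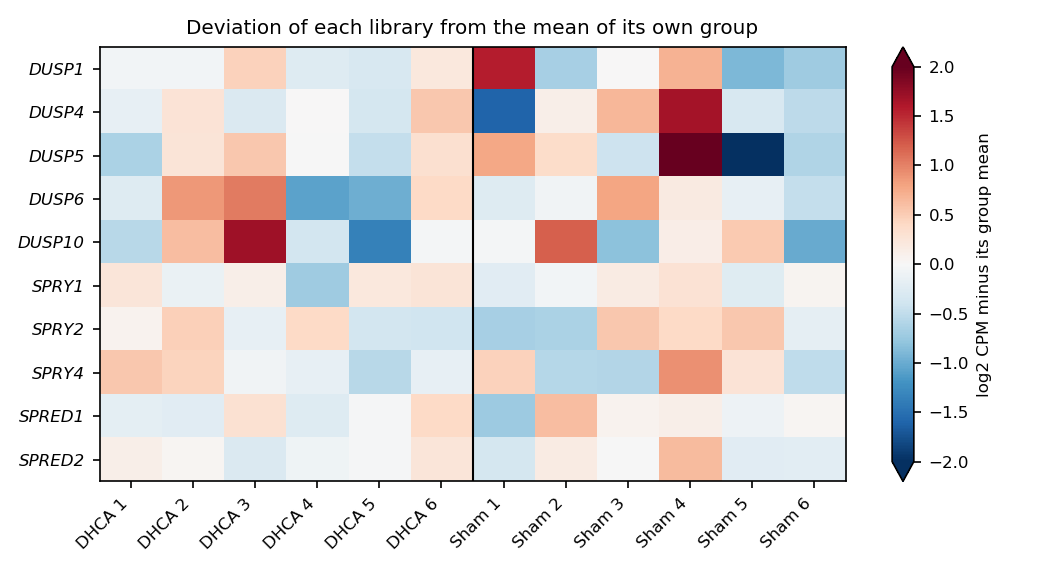
Log2 CPM of each gene in each library minus the mean of its own group, DHCA on the left and sham on the right of the black line, red above and blue below that mean (colours end at 2 in either direction). Sham 4 is above its group mean in 10 of 10 genes, and DUSP6 and DUSP10 both have their highest DHCA values in DHCA 3.

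The genes whose library-to-library pattern was most like a member's were sought for the 3 members with the smallest p, as the highest Pearson correlation of log2 CPM over 12 libraries after taking off the group means, among 13201 genes. Since they were picked as the highest, no p is given. For DUSP6 they were MFSD2A, a lipid transporter gene (r = 0.95, Spearman's rho 0.98), ANKRD34C (r = 0.81, rho 0.83) and NPAS4, an activity-dependent transcription factor gene (r = 0.81, rho 0.71). NPAS4 was at 136 CPM in DHCA 2 and 79.0 CPM in DHCA 3, against 0.560 to 5.77 CPM in the other 4 DHCA libraries and 0.569 to 3.10 CPM in sham. The correlation with DUSP6 was 0.92 within DHCA and 0.06 within sham for NPAS4, and 0.98 within DHCA and 0.81 within sham for MFSD2A. MFSD2A averaged 15.9 CPM in DHCA and 21.9 CPM in sham, with a log2 fold change of -0.47 (SE 0.32), so its group difference had the sign opposite to that of DUSP6. For SPRY1 they were CCDC38 (r = 0.92, rho 0.85), TEK, an endothelial receptor gene (r = 0.84, rho 0.85), and EIF1AY (r = 0.81, rho 0.43). The correlation of EIF1AY with SPRY1 was 0.93 within DHCA but 0.14 within sham, and EIF1AY ranged from 0 to 22.1 CPM in DHCA. That of CCDC38 was 0.93 within DHCA and 0.89 within sham, and that of TEK 0.86 within DHCA and 0.92 within sham. TEK averaged 8.52 CPM in DHCA and 16.1 CPM in sham (log2 fold change -0.95, SE 0.29, edgeR adjusted p = 0.330). For DUSP4 they were PRICKLE2 (r = 0.95), MSRA (r = 0.95) and ACVR1 (r = 0.94), with correlations of 0.56 to 0.82 within DHCA and 0.96 to 0.98 within sham. DUSP4 deviated from its group mean most in Sham 4 (1.67 on the log2 scale) and Sham 1 (-1.60). In a comparison added after seeing the data, the 3 correlations with DUSP4 were 0.92, 0.90 and 0.88 without Sham 4 and 0.79, 0.75 and 0.70 without Sham 1 and Sham 4. Those with DUSP6 and SPRY1 were 0.81 to 0.96 without both.

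In the authors' deposited table, which rests on a fit whose libraries are not given, all 10 genes also had an adjusted p above 0.05. Of the 21223 genes there, 220 had an adjusted p under 0.05, so few calls among 10 genes would be looked for. That table gives SPRY1 a log2 fold change of -0.55 (standard error 0.20, adjusted p = 0.182), the smallest adjusted p of the 10. The authors' deposited table gives DUSP5 a log2 fold change of 1.54 (standard error 0.66, adjusted p = 0.344) and DUSP6 one of 0.80 (standard error 0.40, adjusted p = 0.471).

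Other brakes on the pathway also had no call by edgeR, while other tools called DUSP2 and ERRFI1. Of 5 further dual-specificity MAP kinase phosphatase genes, 0 passed the edgeR test. DUSP2, an inducible nuclear phosphatase best known from immune cells, ranged from 1.44 to 4.89 CPM in DHCA and from 0.293 to 2.71 CPM in sham. Sham 1 was the highest sham library and the other 5 lay below all of DHCA (log2 fold change 1.33, SE 0.48, edgeR adjusted p = 0.440). DUSP2 had only 157 counts over the 12 libraries, with a lowest library count of 1. In Sham 5, 3 counts equal 2.00 CPM, above the lowest DHCA value, so that the separation rests on few counts. With sample quality weights in limma-voom the log2 fold change of DUSP2 was 2.24 (SE 0.40) and was called (adjusted p = 0.0139), where that fit called 1.48% of all genes. Over all alternatives the adjusted p of DUSP2 ranged up to 0.760. DUSP16 had 0.28 (SE 0.18) and DUSP9 had -0.32 (SE 0.38). Of 7 tested genes for other inhibitors of receptor and RAS signalling, 0 passed. ERRFI1, a feedback inhibitor of the epidermal growth factor receptor, averaged 35.4 ± 11.2 CPM in DHCA and 19.5 ± 3.63 CPM in sham (SD, n = 6 each), with all 6 DHCA libraries above the sham median. Its log2 fold change was 0.87 (SE 0.22, edgeR adjusted p = 0.170; called by the DESeq2 Wald test with adjusted p = 0.0242 and with sample quality weights, with adjusted p = 0.0201; up to 0.536 over all alternatives). SPRY3 had -0.37 (SE 0.28) and SPRED3 had -0.53 (SE 0.43).

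No gene of the kinase cascades themselves passed the edgeR test. Of 17 genes from the adaptor GRB2 through RAS and RAF to ERK, 0 passed the test and 0 had an unadjusted p under 0.05, beside 7.9% of all genes tested. Their median log2 fold change was 0.05. BRAF, which encodes a RAF kinase, had 0.40 (SE 0.24), the scaffold gene KSR1 had -0.40 (SE 0.27) and HRAS had -0.28 (SE 0.20). Of 15 tested genes of the JNK and p38 cascades, 0 passed and 1 had an unadjusted p under 0.05, MAP3K5, which encodes a stress-activated kinase (0.43, SE 0.19). MAPKAPK2, a p38 substrate kinase gene, had 0.27 (SE 0.16) and MAP3K4 had -0.24 (SE 0.19).

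Of 11 tested growth factor ligand genes, 0 passed and 3 were lower at an unadjusted p under 0.05, as were 4.47% of all genes tested. EGF ranged from 1.34 to 2.35 CPM in DHCA and from 2.66 to 9.31 CPM in sham, so that its groups did not overlap (log2 fold change -1.22, SE 0.32, edgeR adjusted p = 0.193). Groups did not overlap in 0.993% of all genes tested. EGF had only 253 counts over the 12 libraries, with a lowest library count of 4. The DESeq2 Wald test called EGF (adjusted p = 0.0339; up to 0.475 over all alternatives), and with sample quality weights its log2 fold change was -0.74. PDGFB had -0.77 (SE 0.28) and FGF1 had -0.31 (SE 0.14). Of 16 receptor genes, 0 passed and 1 had an unadjusted p under 0.05, the hepatocyte growth factor receptor gene MET (-0.96, SE 0.42; -0.59 without Sham 4). FGFR2 had 0.37 (SE 0.18) and KDR, the main receptor gene for vascular endothelial growth factor, had -0.61 (SE 0.29).

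Genes downstream of ERK had fold changes of both signs. Of 16 ERK-induced genes outside the 10, 0 passed the test, and their median log2 fold change was 0.09. The unadjusted p was under 0.05 in 2 higher and 2 lower genes (edgeR; 3.43% and 4.47% of all genes tested). CCND1, the cyclin D1 gene, was at 17.6 ± 5.09 CPM in DHCA and 31.2 ± 6.50 CPM in sham (-0.81, SE 0.21, edgeR adjusted p = 0.206), and it was called by the DESeq2 Wald test (adjusted p = 0.0309; up to 0.771 over all alternatives). PHLDA1, another ERK-induced gene, had -0.85 (SE 0.26). ETV5, an ETS factor gene induced by fibroblast growth factors, was at 143 ± 14.5 CPM in DHCA and 94.7 ± 33.3 CPM in sham (0.59, SE 0.22, edgeR adjusted p = 0.471). Of 9 tested AP-1 and activity genes, 0 passed, with unadjusted p under 0.05 in 4 higher genes and 1 lower gene (3.43% and 4.47% of all genes tested). FOSL2, an AP-1 subunit gene, had 0.62 (SE 0.16, edgeR adjusted p = 0.202) and was called by the DESeq2 Wald test (adjusted p = 0.0167; up to 0.642 over all alternatives). NPAS4 had 4.87 (SE 1.34, edgeR adjusted p = 0.235), but 3.75 without DHCA 2, 2.17 with limma-voom and 1.20 with sample quality weights. It was called by the DESeq2 Wald test alone (adjusted p = 0.00906; up to 0.868 over all alternatives). ARC, an activity-induced synaptic gene, had -1.22 (SE 0.37). Of 12 glucocorticoid-induced genes, among which ERRFI1 stands again, 2 rose (the metallothionein genes MT1A and MT2A, edgeR adjusted p = 0.0323 and 0.0415; 0.136% of all genes rose) and all 12 fold changes were positive, with a median of 0.79. MT1A was at 14.1 ± 7.23 CPM in DHCA and 1.84 ± 1.71 CPM in sham, and MT2A at 45.8 ± 14.8 CPM in DHCA and 18.8 ± 4.35 CPM in sham (SD, n = 6 each), and reads can be shared between these similar genes. Without 1 library, MT1A was called when DHCA 5, DHCA 6, Sham 1 or Sham 2 was left out and MT2A when DHCA 6, Sham 1 or Sham 2 was, while leaving out any other library ended the call (edgeR adjusted p up to 0.105 for MT1A and 0.126 for MT2A).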

How the data were processed

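RNA labelled as striatum was isolated with RNeasy columns, made into Illumina TruSeq libraries and sequenced on a HiSeq, per the labels' protocols. For the deposited counts, the authors ran featureCounts 1.5.1 on exons of the Sscrofa11.1 Ensembl genes without a strand option, per the file headers. Of 18 library columns, 12 match the samples by number and 6 were not used. The authors' deposited table gives a normalized mean signal, a log2 fold change, a statistic (score) and p-values, per the file headers. The submitters' processing notes name DESeq2. In all 21223 rows the sign of that statistic is opposite to that of the fold change. A correlation of 0.967 with the fold changes computed here, over 14004 genes, set its direction as DHCA minus sham. Groups came from the sample titles, with 6 piglets each, so p-values measure the spread between animals.

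Symbols (17449 of 25880 genes) are those of the authors' deposited table, with a table of pig gene names filling gaps. In R 4.3.3, counts were filtered with edgeR 4.0.16 filterByExpr, scaled by TMM and tested with glmQLFit (robust) and glmQLFTest, group being the only term, over 14004 genes. The threshold was an adjusted p of 0.05, the SE came from the F statistic, and intervals are 95%, unadjusted. CPM uses TMM-scaled library sizes, and RPKM divides it by the exon length in the count table. Marker sums are CPM of the unscaled library total. Log2 CPM has a prior count of 2.

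A level of 1 CPM equals 1.50 counts in Sham 5 and 13.7 counts in Sham 6. No 2 libraries of a group agreed within sampling noise (chi-square divided by its degrees of freedom 8.50 to 125.8). The steps were tested on simulated data of 14004 genes, 200 of them changed. They recovered 44% of the 2-fold and 92% of the 4-fold changes, with 10 false calls. A 2-fold change could thus be missed.

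The 10 genes, the pathway and marker lists and the alternatives were chosen with earlier results of these data known. All members were named, and from each other pathway list the genes past the threshold, or else the 3 with the smallest p. Genes of the pathway lists that were left untested are PEBP1 and JUND (no row of that name), and MAPK13, FGF18, BDNF, NTF3, IGF1 and JUNB (low counts). Alternatives were other size factors in edgeR, DESeq2 1.42.0, limma-voom (limma 3.58.1) with and without sample quality weights, other filters, the replicate number as a block, and leaving out libraries.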

Additional observations from a re-analysis of the deposited data

Results flagged for a closer look

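Values that lay far from the other libraries of their group were looked for in 94 groups of 6 libraries (10 members, 26 other named genes and 11 marker lists, each in DHCA and sham), and 7 were found, where chance gives about 1 in 20. The 1 among the 20 groups of members, no more than that rate gives, was DUSP5 in Sham 4. It was at 27.9 CPM against 0 to 4.65 CPM in the other 5 sham libraries. The same library had 1026 CPM for excitatory neuron markers of other regions (30.8 to 79.1 in the other sham libraries) and 15.2 CPM for MET (4.65 to 7.82). Sham 1, a shallow library, had 9.31 CPM for EGF (2.66 to 4.41 in the other sham libraries) and 15.9 CPM for SPRED3 (2.58 to 7.39). DHCA 3 had 8.76 CPM for MET (1.68 to 4.33 in the other DHCA libraries) and 1455 CPM for neuron markers (1853 to 2043). What lies behind these values was not tested.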

How the results depend on the processing

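Over 22 alternatives, the fold changes of DUSP4, DUSP5, DUSP6, SPRY1 and SPRED2 kept their sign, and 1 of the 220 fits of a member gave a call, that of DUSP5 with sample quality weights (2.20, adjusted p = 0.0216), which made 1 member called in place of 0. Signs turned in 17 fits of the other 5 members, and the cause was not tested. SPRED1 turned to -0.0091 with upper-quartile factors, -0.11 with quality weights, -0.14 without Sham 1 and Sham 5 and -0.18 without Sham 1, Sham 4 and Sham 5. SPRY4 turned to 0.23 with quality weights and 0.28 without Sham 1, Sham 4 and Sham 5, where SPRY2 was at 0.024. Leaving out 1 library gave ranges of -0.037 to 0.57 for DUSP1, -0.091 to 0.86 for DUSP10, -0.19 to 0.048 for SPRY2, -0.089 to 0.18 for SPRED1 and 0.47 to 2.20 for DUSP5. The median over the members ranged from -0.13 to 0.04 in those fits.

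Of the other named genes, with quality weights DUSP9 turned to 0.11, KSR1 to 0.10 and SPRED3 to 0.15. Without Sham 1, Sham 4 and Sham 5, DUSP9 turned to 0.087, KSR1 to 0.28, MAP3K4 to 0.093 and SPRED3 to 0.20, and without Sham 1 and Sham 5 MAP3K4 turned to 0.020. The count over all genes, 26, was 176 with DESeq2, 207 with quality weights, 8 with the replicate block, 12 without Sham 1 and Sham 5, 1 without Sham 1, Sham 4 and Sham 5, and 9 to 51 without 1 library. The deviations of same-numbered DHCA and sham libraries correlated between -0.39 and 0.34 and 1 of 12 libraries matched its own number best. No likeness by number was thus seen, but such correlations cannot exclude a shared day, litter or batch, which the labels do not give. With the replicate block 0 members were called. Of the other named genes, DESeq2 also called CCND1, EGF, ERRFI1, FOSL2 and NPAS4, and the fit with quality weights DUSP2 and ERRFI1. MT1A and MT2A were called in 4 and 3 of the 12 fits without 1 library. DUSP5, with 768 counts in all, had the fewest counts of the members.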
